A study of Homo sapiens with 6 samples.

Results

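The genes that encode the chains of collagens and laminins were compared between control SW480 cells and SW480 cells with less MORC2. Members were taken by symbol alone, as every gene named COL, a number, A and a number, or LAM, a letter from A to C and a number. This gave 56 genes, 44 collagen and 12 laminin, of 56303 genes in the count table. SW480 is an epithelial line from a human colorectal adenocarcinoma, and MORC2 is a nuclear ATPase of the microrchidia family that acts in chromatin silencing. The shCtrl group carried a nonsilencing hairpin and the shMORC2 group a hairpin against MORC2, with 3 libraries each, numbered 1 to 3. Both groups were SW480 cells that had been infected with lentivirus and selected with puromycin, which the study described as stable clonal lines, and 1 hairpin was compared with 1 control. A difference between the lines that is unrelated to MORC2 therefore cannot be told apart from the knockdown.

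Collagens are trimers of chains that wind into a triple helix, in which glycine recurs in each triplet of residues. Fibrillar collagens (types I, II, III, V and XI) form the fibrils of connective tissue, whereas type IV collagen forms the sheet of basement membranes. Laminins are cross-shaped trimers of an alpha, a beta and a gamma chain, and they form the other main network of the basement membrane on which epithelial cells sit. An epithelial line is a source of basement membrane laminins, while fibrillar collagens are made mainly by fibroblasts and, for type II, by cartilage cells.

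The libraries held 42092664 to 43434425 counts. MORC2 (chromosome 22, 30925130 to 30968298) was at 46.1, 46.4 and 48.8 CPM in shCtrl and at 35.03, 29.3 and 27.2 CPM in shMORC2. CPM is the count scaled to a common library size, after TMM normalization. MORC2 was thus lower in all shMORC2 libraries (edgeR log2 fold change -0.63 with SE 0.10, adjusted p = 0.000216). Of 10 intestinal epithelial markers all were above 3 counts in at least 1 library, with a summed level of 20100 to 26200 CPM in shCtrl and 19200 to 26100 CPM in shMORC2, nearly all of it keratins, and CDX1 was near 0. Of the 9 tested, KRT20 and CDX2 were called higher in shMORC2 (log2 fold changes 0.75 and 0.47, edgeR adjusted p = 0.00305 and 0.0158). Of 7 fibroblast markers 4 were above 3 counts in at least 1 library. Their summed level was 10.1 to 11.6 CPM in shCtrl and 13.1 to 15.5 CPM in shMORC2, most of it LUM. PDGFRB had 63 to 102 counts in every library and PDGFRA at most 12, whereas DCN, FAP and POSTN had at most 2 counts in a library. Of the 3 fibroblast markers that could be tested, THY1 had 0, 4 and 0 counts in shCtrl and 14, 36 and 34 in shMORC2, and it passed the filter on low counts through shMORC2 alone. Of 4 endothelial and 4 immune markers, 2 and 3 were above 3 counts, VWF and CD68 were called higher, and the summed levels were 15.7 to 19.6 against 20.6 to 22.3 CPM and 30.1 to 38.9 against 50.1 to 102 CPM, the latter nearly all CD68. Most of the endothelial sum was PECAM1, which had 576 to 860 counts and was not called (log2 fold change 0.28, edgeR adjusted p = 0.0519). CDH5 and KDR had at most 2 counts, CD3E at most 3 and PTPRC at most 6. The part of these markers in the results was not tested.

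Of the 56 genes, 35 had enough counts to be tested, and 21 did not. By edgeR's quasi-likelihood fit, with an adjusted p under 0.05 as the threshold, 10 were higher in shMORC2 and 9 were lower. That was 28.6% and 25.7% of the 35, beside 19.9% and 19.6% of all 21005 genes tested, or 54.3% against 39.5% in either direction. The median log2 fold change was 0.16 (all genes tested: -0.0056), and the median size of the change was 0.49 (all genes tested: 0.31). For 20 of the 35, or 57.1%, the 3 values of one group lay apart from the 3 of the other, as they did for 50.2% of all genes tested. COL12A1 had passed the filter on low counts through shCtrl alone, so that it had to differ, and without it, a count added after the data were seen, 8 of 34 were lower and 52.9% were called. There were 6 other members (COL4A1, COL4A4, COL5A3, COL20A1, COL26A1 and LAMA1) with fewer than 3 libraries past the filter level in at least 1 group. Among them the called COL5A3 passed through shCtrl and the called COL4A1 through shMORC2, the group where each was higher. A change in the RNA of each cell and a change in the number of cells that express a gene cannot be told apart in these libraries.

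**Figure D1:**
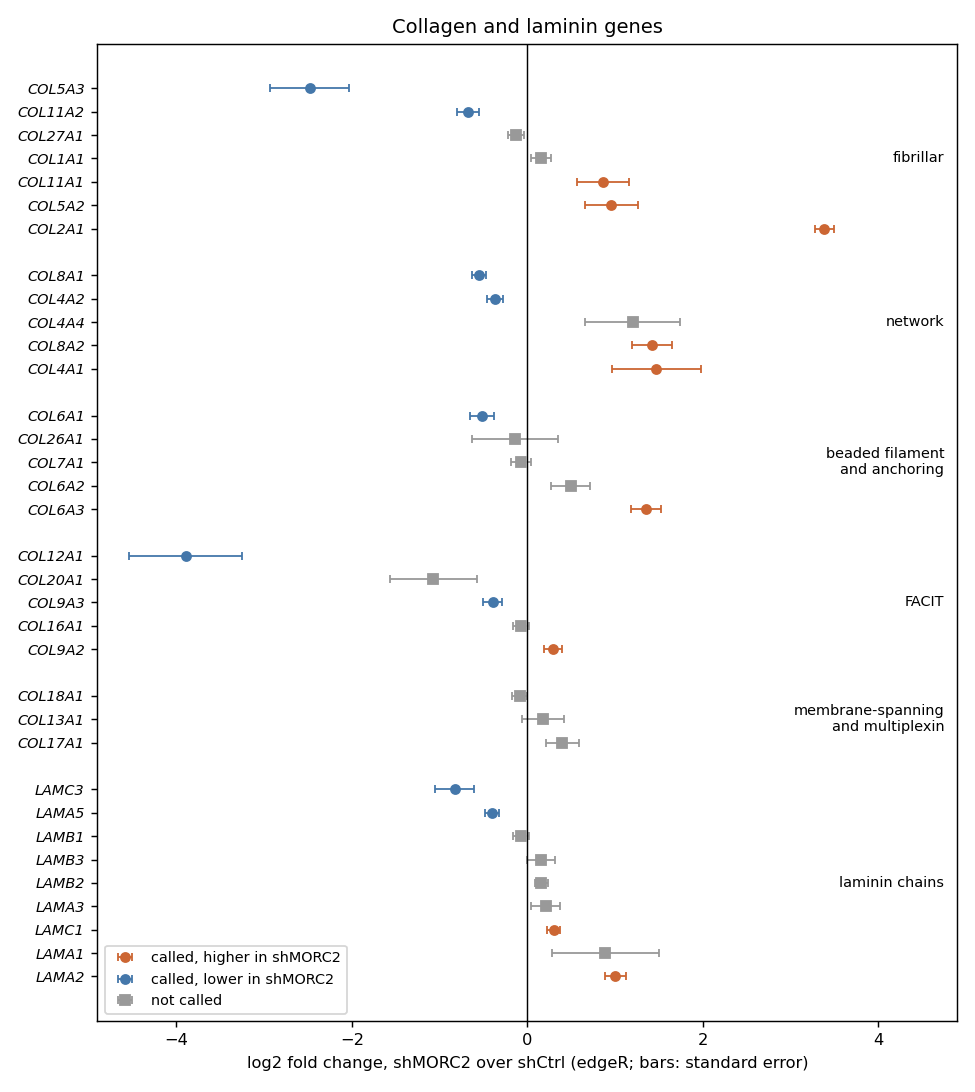
Log2 fold change of shMORC2 over shCtrl for 34 of the 35 tested collagen and laminin genes (x axis, with bars of 1 standard error), grouped by kind of chain, with the call at an adjusted p under 0.05 given by colour. COL2A1, at 3.38, stands furthest to the right and COL12A1, at -3.90 but on few counts, furthest to the left, and every kind with a called gene has genes on both sides of 0.

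Per kilobase of exon, laminin chains and a few collagens made up most of the expression. In shCtrl 9 genes had a mean of at least 10 RPKM (reads scaled to exon length and to library size). Among them were COL6A1 (27.1), COL18A1 (19.4), LAMB3 (19.4), LAMB1 (18.7), COL9A3 (17.6), LAMC1 (15.7), LAMA5 (14.4) and LAMA3 (10.2). In shMORC2 COL6A1 was at 18.8 ± 3.37 RPKM (SD, n = 3). From COL18A1 to LAMC1, the genes next to each other in this list differed by less than the larger of their SDs between libraries. COL2A1 moved from place 22 of 56, at 0.536 ± 0.0742 RPKM, to place 12, at 5.56 ± 0.155 RPKM. The summed level of the 44 collagen genes was 82.4, 97.5 and 90.9 RPKM in shCtrl and 72.6, 85.4 and 84.2 RPKM in shMORC2, where the groups overlapped but each library was below the shCtrl library of equal number. The summed level of the 12 laminin genes was 94.8, 119.6 and 106.5 RPKM in shCtrl and 108.5, 129.7 and 121.9 RPKM in shMORC2, which overlapped as well, with each library above the shCtrl library of equal number.

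Among 11 fibrillar collagens 7 were tested, of which 3 were higher in shMORC2, 2 were lower and 2 were not called. COL2A1, the chain of cartilage type II collagen (chromosome 12, 47972965 to 48004486, minus strand), had 174, 131 and 144 counts in shCtrl and 1619, 1506 and 1604 counts in shMORC2. These are 3.97, 3.098 and 3.50 CPM against 36.5, 36.2 and 37.7 CPM. All shMORC2 libraries were far above all shCtrl libraries, and the libraries of each group lay close together. The increase was 10.4-fold, or 3.38 on the log2 scale with SE 0.11 (edgeR adjusted p = 2.97e-10). COL11A2, a chain of the type XI collagen that joins type II in cartilage fibrils (chromosome 6, 33162681 to 33192499), went the other way. It was at 8.67, 10.2 and 8.61 CPM in shCtrl and at 6.13, 5.93 and 5.07 CPM in shMORC2, without overlap (log2 fold change -0.68, SE 0.13, edgeR adjusted p = 0.000887). Its partner chain COL11A1 rose on few reads, from 27, 29 and 21 counts to 61, 46 and 35 counts (log2 fold change 0.86, SE 0.29, edgeR adjusted p = 0.0320). That call was lost in the fits without shCtrl replicate 1, 2 or 3 and in those without shMORC2 replicate 1 or 2, where the adjusted p ran from 0.0530 to 0.127.

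The chains of type V collagen, which controls the width of type I fibrils, also parted. COL5A3 (chromosome 19, 9959561 to 10010471) fell from 31, 48 and 28 counts to 3, 10 and 6 counts (log2 fold change -2.48, SE 0.45, edgeR adjusted p = 0.000786). It passed the filter through its 3 shCtrl libraries, with 1 shMORC2 library past the filter level, which limits what this p-value can show. COL5A2 rose from 28, 22 and 19 counts to 36, 44 and 55 counts (log2 fold change 0.96, SE 0.30, edgeR adjusted p = 0.0222). The groups did not overlap in either gene. The COL5A2 call was lost without shCtrl replicate 2 or 3 and without shMORC2 replicate 2 or 3, with adjusted p from 0.0550 to 0.103. COL5A1, the chain found in most type V trimers, was too low to be tested, with 4, 10 and 18 counts in shCtrl and 0 in every shMORC2 library. COL3A1, the only chain of type III collagen and the neighbour of COL5A2 on chromosome 2 (19.1 kb apart), had 4, 9 and 8 counts in shCtrl and 0 in every shMORC2 library. Taking 3 counts per library as the limit of detection in shMORC2, the mean shCtrl level was 3.64-fold this limit for COL5A1 and 2.37-fold for COL3A1. These values leave out the spread of the shCtrl counts, so they are not lower bounds on the fall. For type I collagen, COL1A1 was at 8.099, 10.1 and 9.75 CPM against 10.32, 10.45 and 10.38 CPM (log2 fold change 0.16, SE 0.11, edgeR adjusted p = 0.287), whereas the counts of COL1A2 did not go above 10. COL27A1 was not called either (log2 fold change -0.13, SE 0.09, edgeR adjusted p = 0.288), and COL24A1 had at most 4 counts.

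Among 9 network collagens 5 were tested, of which 2 were higher in shMORC2 and 2 were lower. COL8A1, a chain of the short type VIII collagen of vessel walls and the cornea (chromosome 3, 99638475 to 99799226), was at 40.06, 42.5 and 41.04 CPM in shCtrl and at 28.04, 29.6 and 26.8 CPM in shMORC2. The groups lay far apart beside the spread within them (log2 fold change -0.55, SE 0.08, edgeR adjusted p = 0.000128). The other chain of this collagen, COL8A2 (chromosome 1, 36095236 to 36125220), rose from 46, 33 and 28 counts to 97, 88 and 104 counts (log2 fold change 1.42, SE 0.23, edgeR adjusted p = 0.000305).

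Type IV collagen of ordinary basement membranes is built from COL4A1 and COL4A2, which face away from each other on chromosome 13. COL4A2 (110305812 to 110513027, plus strand) was at 16.2, 16.03 and 15.4 CPM in shCtrl and at 11.95, 12.6 and 12.2 CPM in shMORC2, without overlap (log2 fold change -0.37, SE 0.09, edgeR adjusted p = 0.00548). COL4A1 (110148963 to 110307149, minus strand) was near the limit of detection, with 12, 10 and 4 counts in shCtrl and 24, 37 and 12 counts in shMORC2 (log2 fold change 1.47, SE 0.50, edgeR adjusted p = 0.0329). COL4A1 passed the filter through its 3 shMORC2 libraries, with 2 shCtrl libraries past the filter level, which limits what its p-value can show. The COL4A1 call was lost without shCtrl replicate 2 or 3 or shMORC2 replicate 2, with adjusted p from 0.0718 to 0.189. Per kilobase of exon, COL4A1 stood at 0.0135 ± 0.00593 of the level of COL4A2 in shCtrl and at 0.0493 ± 0.0254 of it in shMORC2 (SD, n = 3 each). An antisense gene that shares 243 bases of exon with COL4A2, COL4A2-AS1, was also called lower (log2 fold change -0.59, SE 0.20, edgeR adjusted p = 0.0351), and whether the counting used strand was not given in the sources used here. In RefSeq (GRCh38.p14) the starts of both genes lie on either side of a stretch of 126 bases, chr13:110307158-110307283, which is shown because it separates these starts. In the count table, however, COL4A2 starts at 110305812, inside COL4A1, so the 2 counted spans overlap and that of COL4A2 holds the stretch. The stretch is written on the plus strand, with the RefSeq start of COL4A2 to the right. The capitals mark a CCAAT box and a GC box (GGGCGG):
COL4A1/COL4A2: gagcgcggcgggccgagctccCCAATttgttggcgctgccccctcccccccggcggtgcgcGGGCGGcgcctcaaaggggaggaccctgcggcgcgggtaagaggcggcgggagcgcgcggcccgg
Each of these motifs occurred once, and TATAAA did not occur, in a search of both strands. Of 35116 RefSeq promoters, 21.1% held CCAAT, 34.6% GGGCGG and 5.87% TATAAA in the same number of bases before the start. A match is a description and not a site of binding.

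The other type IV chains were low. COL4A4 had 11, 6 and 6 counts against 32, 14 and 8 counts and was not called (log2 fold change 1.20, SE 0.54, edgeR adjusted p = 0.0931). COL4A3, COL4A5 and COL4A6 never exceeded 6 counts, and COL10A1, a marker of growth plate cartilage, never exceeded 10. No difference was detectable for them at this depth.

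Among 8 collagens of beaded filaments and anchoring fibrils 5 were tested. The 3 main chains of type VI collagen, which forms fine filaments near basement membranes, gave 3 different results. COL6A1 (chromosome 21, 45981737 to 46005050) fell from 122, 156 and 155 CPM to 77.9, 114 and 111 CPM, without overlap (log2 fold change -0.52, SE 0.13, edgeR adjusted p = 0.00725). COL6A3 (chromosome 2, 237324003 to 237414375) rose from 1.73, 1.94 and 2.12 CPM to 4.22, 5.81 and 4.74 CPM, without overlap (log2 fold change 1.35, SE 0.17, edgeR adjusted p = 5.73e-05). COL6A2, which lies 93.0 kb from COL6A1, was at 10.06, 18.4 and 13.2 CPM in shCtrl and at 12.6, 24.4 and 21.6 CPM in shMORC2. The COL6A2 groups overlapped, and the gene was not called (log2 fold change 0.49, SE 0.22, edgeR adjusted p = 0.0977). With the replicate number as a block it was called higher (log2 fold change 0.48, edgeR adjusted p = 4.28e-05), though no label pairs the libraries. COL7A1, which anchors the epidermal basement membrane to the tissue below, was not called (log2 fold change -0.08, SE 0.11, edgeR adjusted p = 0.623), and neither was COL26A1, with 6 to 16 counts. COL6A5, COL6A6 and COL28A1 had at most 4 counts in any library.

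Of 10 collagens that sit on fibrils and have interrupted helices 5 were tested, of which 1 was higher in shMORC2 and 2 were lower, COL12A1 among them. Type IX collagen decorates type II fibrils in cartilage. Its chain COL9A3 (chromosome 20, 62816244 to 62841159) fell from 69.35, 90.7 and 95.3 CPM to 59.0, 67.4 and 67.7 CPM (log2 fold change -0.40, SE 0.11, edgeR adjusted p = 0.0113). The groups stood apart by a narrow margin, and the call was lost without shCtrl replicate 2 or 3 (adjusted p = 0.0531 and 0.0624). COL9A2 (chromosome 1, 40300487 to 40317816) rose slightly, from 9.79, 10.7 and 9.36 CPM to 12.85, 12.4 and 11.2 CPM (log2 fold change 0.29, SE 0.11, edgeR adjusted p = 0.0435). The COL9A2 call was lost in 9 of 13 alternatives, among them the fits without shCtrl replicate 1 or 3 or shMORC2 replicate 1 or 2, and over all 13 the adjusted p ran from 0.0146 to 0.151. COL9A1, the chain that completes the trimer, had no count in any library, and so did COL15A1 and COL19A1. COL12A1 had 16, 22 and 26 counts in shCtrl and 0, 2 and 2 counts in shMORC2. Its mean shCtrl level was 7.22-fold the limit of 3 counts per library in shMORC2, which again leaves out the spread of the shCtrl counts. No test is given for COL12A1, since only shCtrl brought it past the filter. COL16A1 (log2 fold change -0.07, SE 0.09, edgeR adjusted p = 0.552) was not called, and COL20A1 had 11, 17 and 14 against 4, 5 and 11 counts (log2 fold change -1.07, SE 0.50, edgeR adjusted p = 0.103). COL14A1, COL21A1 and COL22A1 had at most 6 counts.

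Of 6 membrane-spanning collagens and multiplexins 3 were tested, and edgeR called 0 of them, with 0 at an unadjusted p under 0.05 as well and 0 by DESeq2. COL17A1, a transmembrane collagen of hemidesmosomes, was at 4.40, 4.54 and 4.11 CPM in shCtrl and 3.86, 6.73 and 6.65 CPM in shMORC2, with overlap (log2 fold change 0.40, SE 0.19, edgeR adjusted p = 0.111). Its lowest library was shMORC2 replicate 1. Without that library the gene was called higher (log2 fold change 0.62, edgeR adjusted p = 0.00206), as it was with the replicate number as a block (log2 fold change 0.37, edgeR adjusted p = 0.0375). COL18A1, the basement membrane collagen whose end fragment is endostatin, was at 161, 173 and 161 CPM in shCtrl and 137, 163 and 166 CPM in shMORC2 (log2 fold change -0.09, SE 0.08, edgeR adjusted p = 0.438). It shares 6826 bases of exon with SLC19A1 on the opposite strand. COL13A1 had 44 to 57 counts and was not called (log2 fold change 0.18, SE 0.23, edgeR adjusted p = 0.582). COL23A1 and COL25A1 had at most 6 counts.

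**Figure D2:**
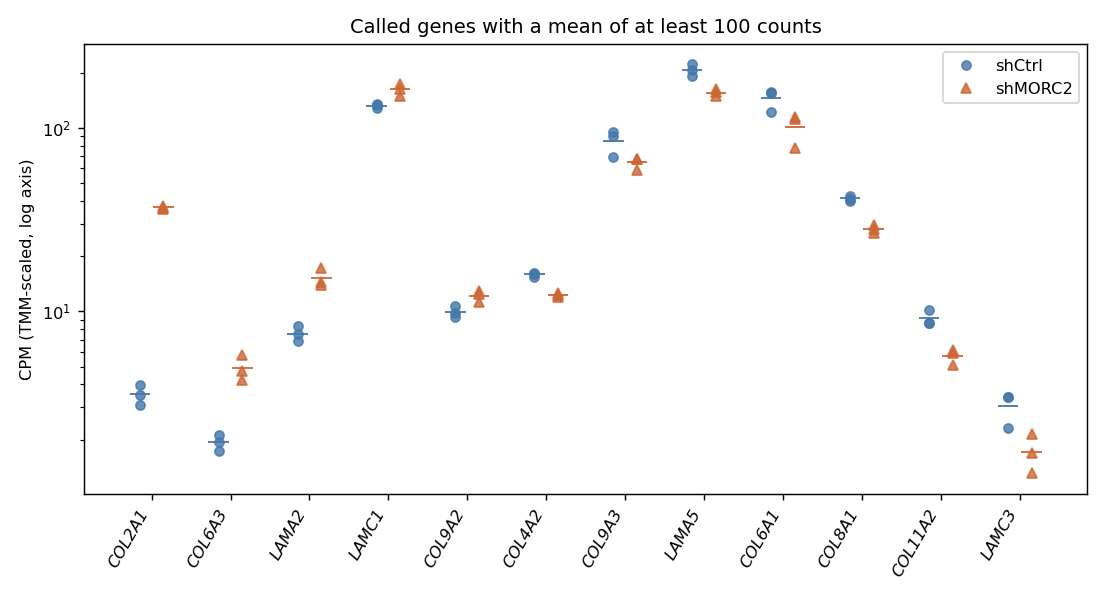
Level in CPM (log axis) in each of the 3 shCtrl (circles) and 3 shMORC2 libraries (triangles) for 12 called genes that averaged 100 counts or more, ordered from the highest to the lowest fold change, with a line at each mean. The groups do not overlap in any of the 12, and COL2A1 moves from 3.52 to 36.8 CPM.

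Among 12 laminin chains 10 were tested. LAMC1, the gamma chain of most laminins, was higher in shMORC2, at 128, 133 and 135 CPM against 148, 174 and 164 CPM (log2 fold change 0.30, SE 0.08, edgeR adjusted p = 0.00838). Its call was lost without shMORC2 replicate 2 (adjusted p = 0.0540). LAMA2, the alpha chain of the laminin of muscle and nerve (chromosome 6, 128883141 to 129516569), rose from 8.33, 7.49 and 6.88 CPM to 17.2, 14.4 and 13.9 CPM, without overlap (log2 fold change 1.001, SE 0.12, edgeR adjusted p = 3.10e-05). A gene on the opposite strand that shares 444 bases of exon with LAMA2, RP1-69D17.3, was called higher as well, on 9 to 42 counts.

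LAMA5, the alpha chain of laminin-511 and the most abundant alpha chain in shCtrl (chromosome 20, 62307955 to 62367312), fell from 191, 221 and 207 CPM to 149, 157 and 162 CPM. No library of one group reached the range of the other (log2 fold change -0.41, SE 0.08, edgeR adjusted p = 0.00117). ADRM1 and LAMA5-AS1 share 728 and 772 bases of exon with LAMA5 on the opposite strand, and neither was called (edgeR adjusted p = 0.461 and 0.211). COL9A3 and COL20A1 lie 449 and 926 kb from LAMA5, and the log2 fold changes of these neighbours were also below 0, though COL20A1 was not called. TCFL5, which shares 165 bases of exon with COL9A3 on the opposite strand, was not called (log2 fold change -0.06, SE 0.09, edgeR adjusted p = 0.642). Other genes between these members were not examined, and a shared change of the region was not tested. LAMC3, a gamma chain with few reads, fell from 101, 144 and 140 counts to 58, 89 and 72 counts (log2 fold change -0.83, SE 0.22, edgeR adjusted p = 0.00978).

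LAMA3 and LAMB3 are chains of an epithelial laminin that anchors cells to the basement membrane. LAMA3 was at 98.9, 170.2 and 146 CPM in shCtrl and at 129, 187 and 163 CPM in shMORC2 (log2 fold change 0.21, SE 0.17, edgeR adjusted p = 0.345). LAMB3 was at 68.4, 113 and 94.7 CPM in shCtrl and at 81.0, 116 and 109 CPM in shMORC2 (log2 fold change 0.15, SE 0.16, edgeR adjusted p = 0.477). In both genes the groups overlapped, and replicate 1 was the lowest library of each group. At equal replicate number all 3 shMORC2 libraries were above their shCtrl counterparts. With the replicate number as a block LAMA3 (log2 fold change 0.23, edgeR adjusted p = 0.00237) and LAMB3 (log2 fold change 0.16, edgeR adjusted p = 0.0278) were called higher. LAMB2, at 58.7, 68.1 and 61.5 CPM against 67.7, 70.7 and 72.0 CPM, was likewise called only with the block (log2 fold change 0.16, edgeR adjusted p = 0.124 without it and 0.0336 with it). LAMB1, the beta chain of laminin-511, was called in neither fit (log2 fold change -0.07, SE 0.09, edgeR adjusted p = 0.559). With the block 24 of the 35 genes, or 68.6%, were called, beside 49.0% of all genes tested. No label pairs the libraries, and the block was chosen from these same counts, so its adjusted p-values may be too small.

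**Figure D3:**
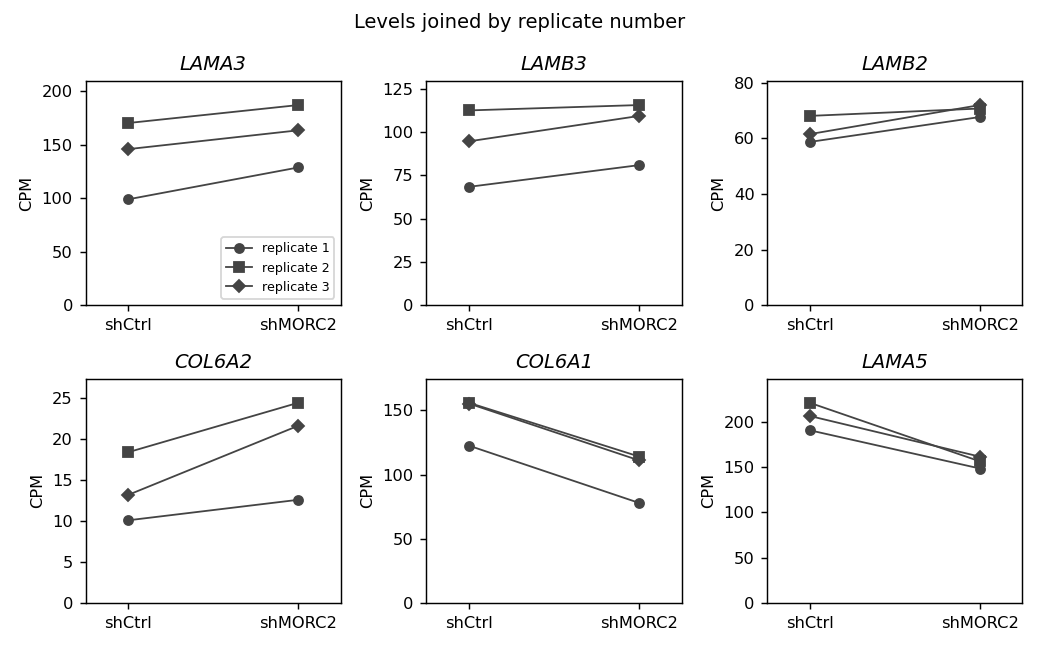
CPM of 6 genes in shCtrl and shMORC2, with a line joining libraries of equal replicate number, which no label pairs (y axes start at 0). LAMA3, LAMB3, LAMB2 and COL6A2 rise along all 3 lines although their groups overlap, whereas COL6A1 and LAMA5 fall along all 3 lines without overlap between groups.

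LAMA1 was at 18, 4 and 2 counts in shCtrl and at 21, 14 and 10 counts in shMORC2, and it was not called (log2 fold change 0.89, SE 0.61, edgeR adjusted p = 0.273). The result rested on 1 control library, as without shCtrl replicate 1 the log2 fold change was 2.23 (edgeR adjusted p = 0.0179). LAMA4 and LAMB4 had at most 4 counts in any library.

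Ratios between chains were then taken within each library, so that library size cancels, for pairs chosen with their values known. COL6A2 stood at 0.0815, 0.117 and 0.0840 of the level of COL6A1 in shCtrl and at 0.160, 0.212 and 0.193 of it in shMORC2, from RPKM. The ratio of COL11A1 to COL11A2 was 0.0536 ± 0.00486 in shCtrl and 0.155 ± 0.0255 in shMORC2 (SD, n = 3 each), and that of COL8A2 to COL8A1 was 0.0410 ± 0.0103 and 0.162 ± 0.0200. In these 3 collagens the less abundant chain gained on the more abundant one. Types I and V were not among the pairs, and there the low chains COL1A2 (10, 8 and 4 against 0, 0 and 4 counts) and COL5A1 had fewer counts in shMORC2. The same direction was seen for COL9A2 to COL9A3, at 0.139 ± 0.0250 in shCtrl and 0.220 ± 0.0308 in shMORC2. For laminins, LAMA3 to LAMA5 was 0.705 ± 0.139 in shCtrl and 1.09 ± 0.175 in shMORC2, so that LAMA5 was the more abundant of these alpha chains in all 3 shCtrl libraries and in 1 of 3 shMORC2 libraries. Of the 9 ratios computed, only LAMB3 to LAMB1 overlapped between groups. The other 8 had an exact two-sided permutation p of 0.1, which is the smallest that 3 against 3 libraries can give, so that none could reach 0.05. For COL4A1 to COL4A2, COL6A3 to COL6A1, COL8A2 to COL8A1, COL9A2 to COL9A3 and COL11A1 to COL11A2 the chains lay apart in opposite directions. Those ratios therefore had to separate, and ratios of other gene pairs were not computed.

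**Figure D4:**
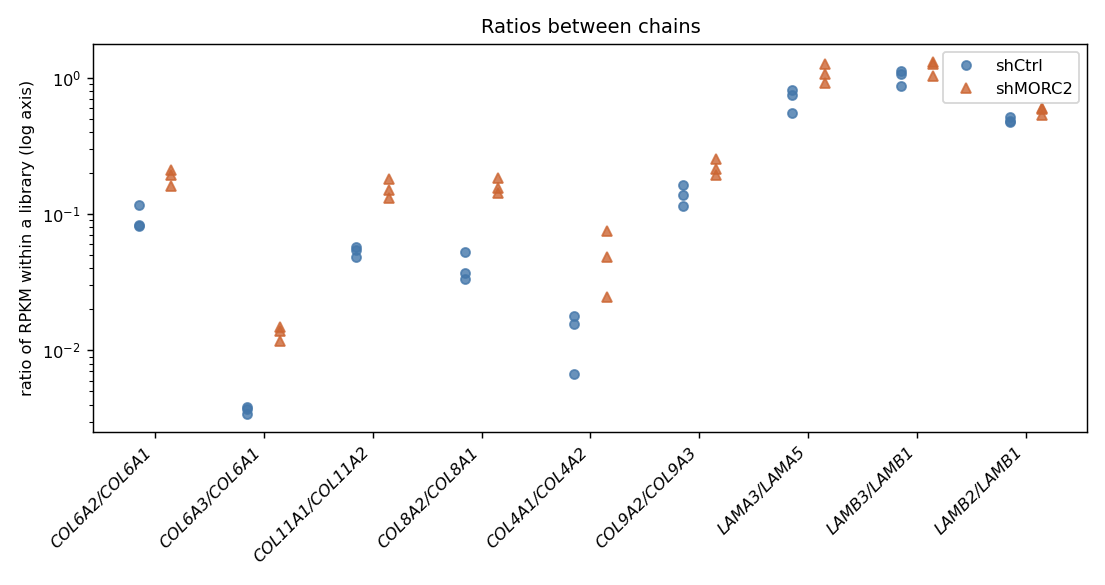
Ratio of RPKM between 2 chains within a library (log axis) for 9 pairs of chains, with 3 shCtrl (circles) and 3 shMORC2 libraries (triangles). Every ratio except LAMB3 to LAMB1 lies higher in each shMORC2 library than in any shCtrl library, for pairs chosen with their values known.

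The genes that fold, modify, cross-link and bind collagens and laminins were counted from a list of 47 in the table, of which 43 were tested. In shMORC2 12 were called higher and 8 lower, or 46.5% of the 43 against 39.5% of all genes tested, with a median log2 fold change of -0.08. In the endoplasmic reticulum group 7 of 18 were higher and 3 lower. They included the chaperone SERPINH1 (log2 fold change 0.36, SE 0.10, edgeR adjusted p = 0.00947) and the prolyl isomerase PPIB (log2 fold change 0.54, SE 0.075, edgeR adjusted p = 0.000104), while MIA3, a factor for the export of bulky collagens, was lower (log2 fold change -0.65, SE 0.09, edgeR adjusted p = 7.02e-05). For cleavage and cross-linking 1 of 12 tested was higher and 3 were lower. The 1 higher was LOXL2, a lysyl oxidase that acts on type IV collagen, which rose from 10.6, 8.51 and 9.77 CPM to 18.2, 27.3 and 27.2 CPM (log2 fold change 1.33, SE 0.15, edgeR adjusted p = 1.80e-05). Of 8 tested basement membrane partners 2 were higher and 2 lower. SMOC2, a matricellular protein, rose from 18.7, 15.8 and 16.8 CPM to 45.5, 41.0 and 39.9 CPM (log2 fold change 1.30, SE 0.09, edgeR adjusted p = 6.14e-07). FN1 rose from 95.7, 100.2 and 101.1 CPM to 172.1, 200.4 and 182.1 CPM (log2 fold change 0.90, SE 0.08, edgeR adjusted p = 2.53e-06). The linker NID1 and the proteoglycan HSPG2 fell (log2 fold changes -0.42 and -0.32, SE 0.09 and 0.08, edgeR adjusted p = 0.00215 and 0.00600). Of 5 tested receptors other than integrins, the laminin receptors DAG1 and BCAM were higher and 0 were lower by edgeR and by DESeq2 (log2 fold changes 0.655 and 0.33, SE 0.09 and 0.12, edgeR adjusted p = 0.000114 and 0.0384). At an unadjusted p under 0.05, 1 was lower, GP6, a platelet collagen receptor, on 4 to 20 counts. The values of BCAM overlapped between the groups.

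The deposited splicing table, made with rMATS, listed 5 events in 5 members among 1449 events. It compares 3 libraries of a group 1 with 3 of a group 2, and since no header says which was shMORC2, no direction of knockdown was given. Every event in the table had an unadjusted p under 0.05 and a difference between groups of 0.1 or more in the authors' comparison, so the listed values were chosen by their difference and are described without a test. The inclusion level is the share of transcripts with the exon, after reads are divided by the lengths of both forms.

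The skipped exon of COL2A1 is exon 2 of 54 of the canonical transcript (GENCODE v44, chr12:47999919-48000125, minus strand, 207 bases, coding). It encodes the cysteine-rich domain in the amino propeptide, and cartilage cells are known to leave it out as they mature. It is shown because COL2A1 is the called member with the largest increase. The capitals mark its 10 in-frame cysteine codons among 68 whole codons:
COL2A1 exon 2: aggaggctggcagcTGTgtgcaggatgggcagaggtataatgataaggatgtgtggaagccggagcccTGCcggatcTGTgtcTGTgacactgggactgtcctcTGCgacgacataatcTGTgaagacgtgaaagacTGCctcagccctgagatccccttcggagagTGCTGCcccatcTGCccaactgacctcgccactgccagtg
In group 1 the exon had 54, 57 and 62 inclusion reads and 4, 3 and 2 skipping reads, which gave levels of 0.839, 0.880 and 0.923. In group 2 it had 8, 5 and 5 inclusion reads and no skipping read, and the level was 1 in each library. Most transcripts of both groups thus carried exon 2. The level of 1 in group 2 rested on 5 to 8 reads per library, against 58 to 64 in group 1.

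For COL8A1 the skipped exon of 62 bases (chr3:99675660-99675721) lies in the untranslated leader of the annotated transcripts that hold it. Its level was 0.635, 0.404 and 0.418 in group 1 and 0.311, 0.208 and 0.149 in group 2, on 25 to 35 reads per library, and the groups did not overlap. For COL13A1 the skipped exon of 42 bases had 1 to 5 reads per library and levels from 0 to 1, which is too few reads to read a difference. COL13A1 and COL18A1 are shown because their listed exons lie in the triple helix, and the capitals mark codons of the form GGN, which encode glycine:
COL13A1 exon 32 (chr10:69935350-69935391): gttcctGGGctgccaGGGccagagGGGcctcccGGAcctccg
COL18A1 exon 19 (chr21:45489486-45489521): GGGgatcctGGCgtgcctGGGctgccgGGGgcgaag
COL18A1 exon 20 (chr21:45490275-45490346): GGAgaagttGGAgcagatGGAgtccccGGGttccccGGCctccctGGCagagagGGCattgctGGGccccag
In COL18A1 a GGN codon opened each triplet of codons, 4 of 12 codons in exon 19 and 8 of 24 in exon 20, so each exon holds whole glycine triplets. These exons were listed as mutually exclusive, although the canonical transcript holds both in a row. The level of exon 19 was 0.374, 0.200 and 0.452 in group 1 and 0.246, 0.169 and 0.175 in group 2, on 70 to 100 reads, with overlap. In LAMA3 exons 69 and 70 of 75 (184 and 141 bases) were listed in the same way, with levels of 0.611, 0.474 and 0.450 for exon 69 in group 1 and 0.223, 0.463 and 0.249 in group 2, on 20 to 50 reads, and 1 library of group 2 fell within the range of group 1.

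**Figure D5:**
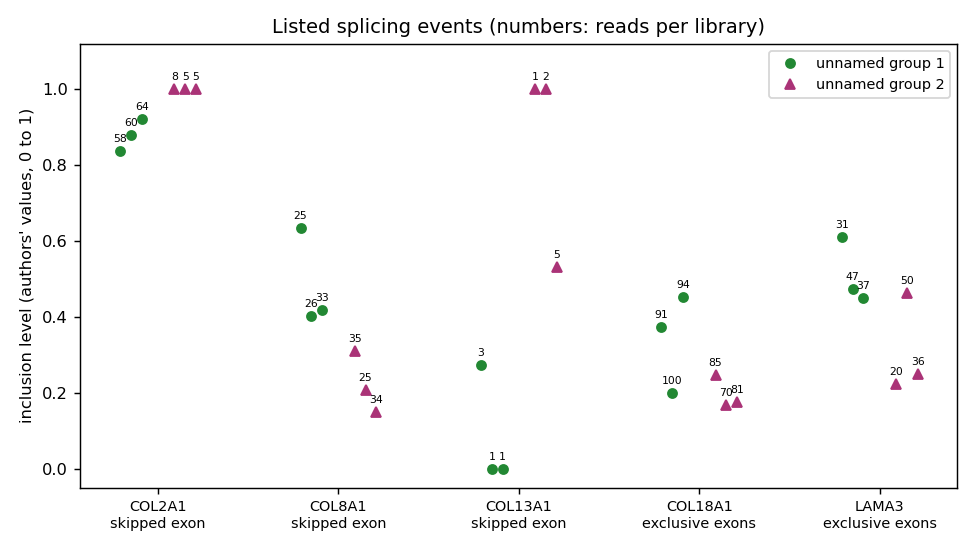
Inclusion level in the authors' table (y axis, 0 to 1) for the 5 listed events, with 3 libraries of unnamed group 1 (circles) and 3 of unnamed group 2 (triangles), and the reads behind each value as a small number. The groups stand apart for COL2A1, COL8A1 and COL13A1, the last on 1 to 5 reads, and overlap for COL18A1 and LAMA3.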

How the data were processed

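RNA from 3 shCtrl and 3 shMORC2 SW480 samples was sequenced with a stranded mRNA kit that adds molecular identifiers. The labels number the samples 1 to 3. The study describes 3 replicate experiments per group. The submitters' processing notes name Trimmomatic 0.36, STAR 2.5.3a, featureCounts of Subread 1.5.1, edgeR 3.12.1 and GRCh38. The strand setting, the annotation release and the handling of identifiers were not given in the sources used here.

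Per gene symbol, the deposited tables hold raw counts of reads and the authors' RPKM values. The authors' rMATS table also holds p-values, adjusted p-values and differences of their own comparison, which were read only to see which events the table lists. A summary of event numbers was not used either. The gene tables had 0 columns of other samples. All 56 members overlapped an equally named GENCODE v44 gene.

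The whole count table was fitted in R 4.3.3 using edgeR 4.0.16 (TMM, filterByExpr, quasi-likelihood fit on group, Benjamini-Hochberg adjustment over 21005 genes). The SE was computed as the size of the log2 fold change divided by the square root of F. The test was tested on simulated data. That simulation drew independent libraries with edgeR's own dispersions, so it did not cover paired or outlying libraries. Floors of 3 counts cover counting error in shMORC2 only, and not the spread of the shCtrl counts.

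Deviations from group means correlated between equal replicate numbers (0.333, 0.165 and 0.149 for replicates 1, 2 and 3), so the numbers were taken to pair the libraries on these values alone. No label pairs the libraries, and unequal numbers were not compared in this way. The block was thus chosen from the counts it was fitted to, and its adjusted p-values may be too small. Libraries of a group differed beyond sampling noise (chi-square per degree of freedom 6.35 to 21.5). Exon sequences were read from hg38 with samtools 1.23.1 and the promoter stretch from the RefSeq table, which held 41 of the 56 members.

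Alternatives were DESeq2 1.42.0, no TMM, 2 other count filters, the replicate number as a block, limma 3.58.1 with a pseudocount of 1 or 0.1 added to RPKM before log2, where the mean RPKM was 1 or more, a log2 fold change of at least 1, each library left out in turn, and only splicing events that had 20 reads or more per library. The members and lists were chosen with earlier results of these data known. Every member was named except 1, which is not reported here but is part of the counts and sums. Values in every library were given for called members averaging 100 counts or more and their partner chains. Of the processing and matrix list, genes with a log2 fold change of at least 1 and a mean of at least 100 counts were named. PPIB, SERPINH1, MIA3, FN1, NID1, HSPG2, DAG1, BCAM and GP6, and the library values of other members, were chosen after their values were seen.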

Additional observations from a re-analysis of the deposited data

How the results depend on the processing

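The direction and the call of MORC2 held in all 13 alternatives (log2 fold changes -0.74 to -0.55). Of the 19 called collagen and laminin genes, 13 kept their call in all 6 fits without 1 library, and COL4A1, COL5A2, COL9A2, COL9A3, COL11A1 and LAMC1 did not. Genes called higher numbered 5 to 10 without 1 library, with 6 without shCtrl replicate 3 and 5 without shMORC2 replicate 2, and genes called lower 8 to 10. DESeq2 called 6 higher, losing COL4A1, COL5A2, COL9A2 and COL11A1, and limma on log2(RPKM + 1) and on log2(RPKM + 0.1) called 4, where only 21 members had a mean RPKM of at least 1. Of the 35 members tested, 5 were called higher and 2 lower with a log2 fold change of at least 1 in size. COL4A4 and COL20A1 also reached that size but were not called. Of the 43 genes tested in the processing and matrix list, 2 were called higher and 0 lower at that size, and GP6 reached it without a call. Of all 21005 genes tested, 1627 were called with a change of that size. Among the members so called, the lower COL5A3 and COL12A1 passed the filter through shCtrl and the higher COL4A1 through shMORC2. How many of the 1627 passed in this way was not counted. For the DESeq2 and limma fits the share over all genes is not given here. Calls in the processing and matrix list ran from 9 to 13 higher and from 6 to 8 lower without 1 library. Without a filter on low counts COL6A2 and COL17A1 were called higher and COL3A1 and COL5A1 lower. The replicate number as a block gave 15 higher and 9 lower members, adding COL6A2, COL17A1, LAMA3, LAMB2 and LAMB3, and changed no other call of a member. The log2 fold change of genes that were not called reversed without 1 library for COL7A1 (range -0.17 to 0.040, above 0 without shCtrl replicate 2 or shMORC2 replicate 1), COL26A1 (-0.51 to 0.14, above 0 without shCtrl replicate 3 or shMORC2 replicate 1), LAMB1 (-0.15 to 0.012, above 0 without shCtrl replicate 2) and LAMB3 (-0.025 to 0.32, below 0 without shCtrl replicate 1). The cause was not tested. Of the 5 listed splicing events, 3 had at least 20 reads in every library. Depth limits the 21 members with at most 18 counts in any library. Among single members 382 values kept their side of the threshold, 27 lost their call, 12 gained one and 6 reversed.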
